A study of Mus musculus with 4 samples.

Results

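The 48 proteasome genes of the mouse were followed through testis cells of control and busulfan-treated mice. They were chosen by symbol, as every row of the deposited table named Psma, Psmb, Psmc, Psmd, Psme, Psmf or Psmg followed by a number, which gave 48 of the 18419 genes. The set held 8 genes of the alpha ring and 11 of the beta ring of the 20S core, 6 ATPases of the 19S cap, 14 Psmd genes, 4 activators, 1 inhibitor and 4 assembly chaperones of the Psmg series. The Psmd genes encode non-ATPase subunits of the cap, except Psmd5, Psmd9 and Psmd10, which encode chaperones of its assembly. Psmc3ip, a meiotic recombination protein, and Psme2b, a copy of Psme2, fell outside the naming rule. All 48 symbols were found in the GENCODE M21 annotation, and 1 of them, Psma2, overlapped another gene of the table (AW209491) on the same strand, so its UMIs may be shared.

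The proteasome degrades proteins that carry ubiquitin chains. Its 20S core is a barrel in which alpha rings form the gate and beta rings hold the catalytic sites, and the 19S cap recognises, deubiquitinates and unfolds the substrate. Cells can exchange parts of the particle: Psmb8, Psmb9 and Psmb10 take the place of the catalytic subunits Psmb5, Psmb6 and Psmb7 in the immunoproteasome, Psmb11 replaces Psmb5 in the thymus cortex, and Psma8 is the germ cell counterpart of the alpha subunit Psma7. Psme1 and Psme2 form the interferon-induced activator PA28, Psme3 forms the nuclear activator PA28 gamma, and Psme4 is PA200, an activator associated with histone degradation in spermatids. The testis form that combines Psma8 and PA200 is known as the spermatoproteasome.

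The cells came from seminiferous tubules of ICR male mice that were juvenile at the start of treatment. Of the 4 groups, A0 received vehicle, and A10 received alginate oligosaccharides (AOS), 10 mg per kg body weight, by gavage. B0 received a single injection of busulfan, an alkylating agent that kills spermatogonia, and then vehicle, and BA10 received the same injection and then the AOS dose of A10. A group consisted of 1 droplet library (10x Genomics 3' chemistry) of cells combined from several mice that cannot be told apart, so the comparisons below have no replicate check and carry no test. Intervals are 95% exact intervals and cover counting error only.

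A0, A10, B0 and BA10 held 8941, 9682, 4659 and 3778 cells, with a median of 12685, 10948, 4214 and 17989 unique molecular identifiers (UMIs) per cell, and 374 barcodes occurred in more than 1 library. A UMI stands for a transcript end, so levels, given as UMIs per 1000000 UMIs of the summed cells (CPM), do not scale with gene length, although capture can differ between genes. Cells were clustered without the 48 genes and named from marker lists. Spermatocyte-like (SPC-like) cells numbered 2841, 3064, 208 and 2487 in A0, A10, B0 and BA10, spermatid-like (ST-like) cells 4841, 5273, 0 and 18, and Leydig-like cells 5, 8, 2923 and 126. Spermatogonia-like (SPG-like, 238), Sertoli-like (196) and macrophage-like cells (445) came mainly from B0, and 8 of 35 clusters were left unnamed because their leading genes or markers did not point to 1 class. All but a few of the SPC-like cells came from clusters 0, 6, 9 and 10 in A0 and A10, clusters 19 and 31 in B0 and clusters 11, 18, 19 and 21 in BA10. Leydig and Sertoli markers were higher in the SPC-like cells of the busulfan libraries. All 8 Leydig markers had UMIs in the SPC-like cells of B0 and BA10, with a sum of 447 and 126 CPM against 3.73 CPM in A0 and 3.44 CPM in A10. Sertoli markers (8 of 8 with UMIs) summed to 1417 and 172 CPM there, against 21.5 and 33.1 CPM. How this RNA came to be counted in these cells, and its part in the values below, were not tested.

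The 48 genes together took 0.715% and 0.706% of all UMIs in A0 and A10, and 0.842% and 0.801% in B0 and BA10. Single subunits differed far more between libraries than this sum. Psma6, an alpha subunit, had 1045, 1009, 244 and 281 CPM in A0, A10, B0 and BA10, while Psma7 had 27.0, 29.2, 615 and 72.5 CPM. Psmc3, a 19S ATPase, stayed between 620 and 978 CPM. Psmb11 had between 0 and 0.118 CPM, with 0 UMIs in B0, and was not compared.

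**Figure D1:**
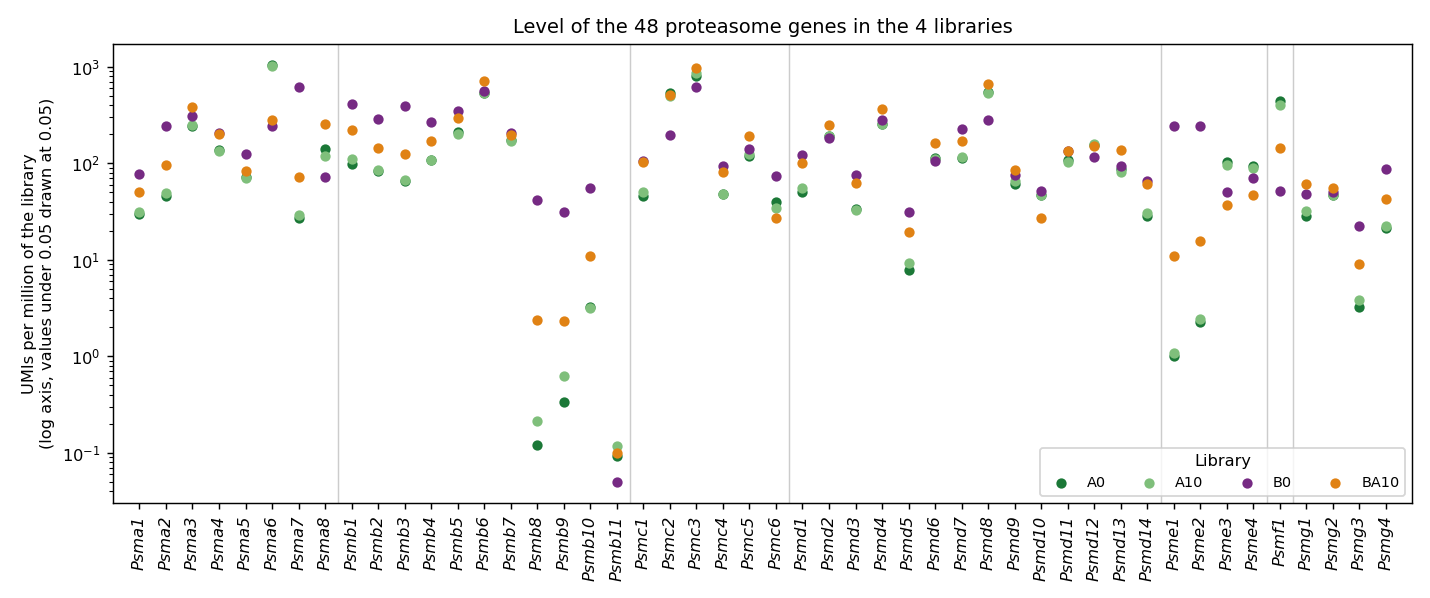
Level of each of the 48 genes in the 4 libraries, in CPM on a log axis, ordered by role and divided by grey lines (20S alpha, 20S beta, 19S ATPase, Psmd, activators, inhibitor, assembly chaperones). A0 and A10 overlap for most genes, whereas B0 stands above them for Psma7, Psmb8, Psmb9, Psmb10, Psme1 and Psme2 and below them for Psma6 and Psmf1.

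Compared to A0, AOS alone left the levels close. Of 40 members at 10 CPM or more in either library, 0 were at least 2-fold higher and 0 at least 2-fold lower in A10, where 0.0446% and 0.0595% of all 6724 genes at that level were. Ratios are given as log2 of (CPM + 1) over (CPM + 1). The members' median was 0.01, against -0.03 over all genes. The 3 lowest were Psma8 (-0.24), the ATPase Psmc6 (-0.19) and the inhibitor Psmf1 (-0.14), and the 3 highest were Psmb1 (0.19), Psmg1 (0.15) and Psmc1 (0.14).

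Compared to A0, the busulfan library B0 had 19 members at least 2-fold higher and 4 at least 2-fold lower among 47 at 10 CPM or more, where 42.8% of 10056 genes were higher and 22.7% were lower. The share of members that were higher, 40.4%, was thus near that of all genes, and the share that was lower, 8.51%, was smaller. By role, 7 of 10 beta genes and 0 of them in the other direction passed 2-fold, against 4 of 14 Psmd genes. Of the beta genes, Psmb8, Psmb9 and Psmb10 had 0.12, 0.34 and 3.24 CPM in A0 and reached 10 CPM only through B0. The same held for Psme1, Psme2, Psmd5 and Psmg3. The filter thus favoured a call of all these genes as higher, and each was among the higher members. The highest ratios belonged to Psme1 (6.93), Psme2 (6.23) and Psmb8 (5.26), and the lowest to Psmf1 (-3.07), Psma6 (-2.09) and the ATPase Psmc2 (-1.44). Over all cells, the kinds of cells and the level per cell cannot be told apart: Leydig markers (8 of 8 with UMIs) summed to 15307 CPM in B0 and 8.26 CPM in A0. With only cells of at least 9013 UMIs, the lowest number in BA10, which leaves 448 of 4659 cells of B0 and so also changes its kinds of cells, 5 of 44 members were at least 2-fold higher and 3 at least 2-fold lower, against 16.1% and 11.7% of all genes, and 1 of 8 beta genes and 0 of 14 Psmd genes were higher.

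Compared to B0, BA10 had 4 members at least 2-fold higher and 11 at least 2-fold lower of 47, where 18.8% and 39.5% of 9720 genes were. Psmb8, Psmb9 and Psmg3, all among the lower, had 2.40, 2.34 and 9.08 CPM in BA10 and reached 10 CPM only through B0. The lowest ratios were those of Psme1 (-4.36), Psme2 (-3.88) and Psmb8 (-3.66), and the highest those of Psma8 (1.81), Psmf1 (1.46) and Psmc2 (1.39). Within SPC-like cells the 8 alpha genes, Psma8 among them, had ratios of -1.76 to -0.06, while Psmf1 was at 1.02. Above 9013 UMIs per cell the counts were 0 and 3 of 44 members, against 1.14% and 14.1% of all genes, and the 3 were Psme1, Psme2 and Psme4. Compared to A0, BA10 had 10 members higher and 3 lower of 44, where 15.2% and 20.2% of 7549 genes were. Centred on the median of all genes, 4 were higher and 5 lower, against 5.06% and 24.2% of all genes. With a pseudocount of 10 CPM 4 were higher and 3 lower, against 5.83% and 15.8%, and within SPC-like cells 1 was higher and 1 lower, against 3.60% and 12.2%. Psme1 (2.57), Psme2 (2.35) and Psmb10 (1.48) were highest and Psma6 (-1.89), Psmf1 (-1.61) and Psme3 (-1.44) lowest. The highest had 1.01, 2.25 and 3.24 CPM in A0 and reached 10 CPM only through BA10. The same held for Psmd5, also among the higher members, with 7.85 CPM in A0. Spermatid markers summed to 44790 CPM in A0 and 1524 CPM in BA10, and their part in the ratios was not tested. Within SPC-like cells Psmf1 was -0.19 and Psme3 -0.21, and the lowest alpha gene was at -0.78. The ratios of B0 over A0 and of BA10 over B0 share the B0 library with opposite sign. The same genes can thus fall at opposite ends of these comparisons by construction. Both comparisons with A0 use the same A0 cells.

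Psma7 and Psma8 differed between cell classes. In B0, Psma7 (chr2:180036374-180042433, minus strand, GRCm38) had 722 CPM (671 to 777) in SPG-like cells, 865 in Leydig-like, 1254 in Sertoli-like and 751 in macrophage-like cells, but 28.1 CPM (26.7 to 29.5) in SPC-like cells of A0, 31.3 in A10, 201 (181 to 223) in B0 and 58.8 in BA10. Psma8 had 21.8 CPM (13.7 to 33.0) in the SPG-like cells of B0 and 249, 201, 438 and 292 CPM in the SPC-like cells of A0, A10, B0 and BA10. The order of the classes was therefore opposite for the 2 genes among germ cells of B0, where both classes come from 1 library: from SPG-like to SPC-like cells Psma7 was lower (log2 ratio -1.84) and Psma8 higher (4.27). In that comparison 4 of 47 members were at least 2-fold higher and 13 at least 2-fold lower, against 19.3% and 37.2% of all genes.

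**Figure D2:**
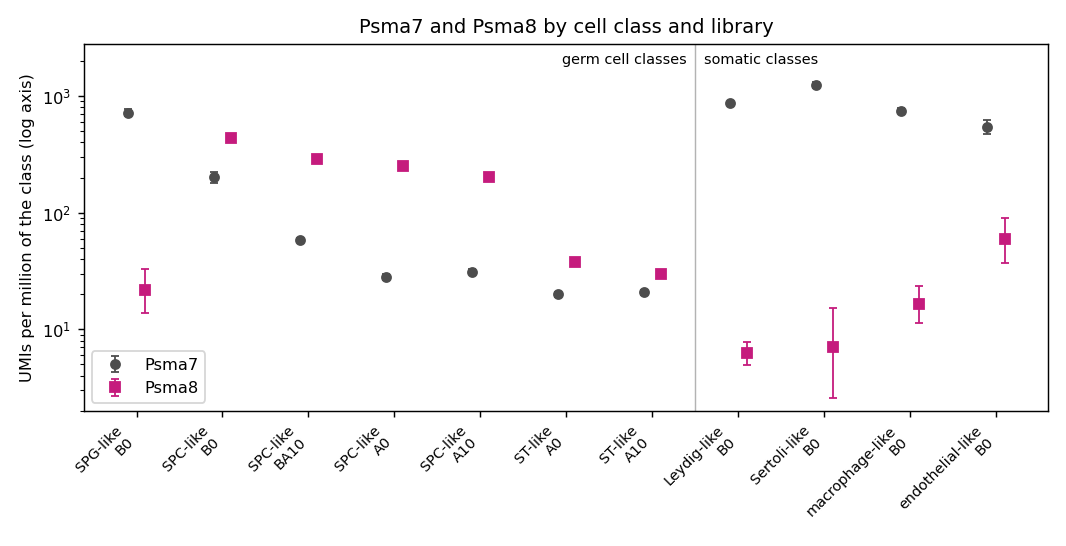
Psma7 (circles) and Psma8 (squares) by cell class and library, in CPM on a log axis, with 95% Poisson intervals. Psma7 lies above Psma8 in the SPG-like and somatic classes, all drawn from B0, and Psma8 above Psma7 in every SPC-like and ST-like class, each taken as a whole.

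As a share of the UMIs of both genes, Psma8 made up 2.93% (1.85 to 4.41) in SPG-like cells of B0, and 7.19% where each cell was named from its own markers. In SPC-like cells it made up 89.9% (89.4 to 90.4) in A0, 86.5% (85.9 to 87.1) in A10, 83.2% (82.7 to 83.7) in BA10 and 68.5% (65.7 to 71.2) in B0. These intervals do not overlap, but each rests on 1 library. The Leydig markers of these cells, given above, were highest in CPM in B0 and lowest in A10, and their part in the shares was not tested. Most SPC-like cells of B0 (148 of 208) lay in the Dazl-led cluster 31, where the share was 58.4% (54.0 to 62.8). That cluster held 0 cells of A0 and 6 of BA10, so the SPC-like classes did not hold the same cells in each library. In cluster 19, which B0 and BA10 share and whose leading gene is Tex101, the shares lay closer, at 76.5% and 79.0%. In ST-like cells Psma8 made up 65.6% in A0 and 59.0% in A10, at a low level of both genes: Psma7 had 19.9 and Psma8 37.9 CPM in A0. The clusters of ST-like cells differed: Psma8 made up 82.5% in cluster 2 and 80.1% in cluster 7 of A0, but 47.1% in cluster 3, 46.5% in cluster 13, 44.6% in cluster 17, 35.3% (30.1 to 40.7) in cluster 8 and 22.4% (15.2 to 31.1) in cluster 30, and in the last pair its interval lay below 50%. Somatic classes of B0 gave 0.720% in Leydig-like, 0.557% in Sertoli-like, 2.16% (1.49 to 3.02) in macrophage-like and 9.78% (6.23 to 14.4) in endothelial-like cells, so the SPG-like share lay within the range of the somatic classes. In BA10 the share was 24.4% in Leydig-like and 67.5% in macrophage-like cells. All 13 spermatocyte markers had UMIs in both, summing to 1065 and 1799 CPM, against 113 and 323 CPM in the same classes of B0.

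Within the meiotic cells Psma8 was not even. By cluster and library, it was highest in A0 at 511 CPM in the unnamed, Tex101-led cluster 15 and at 366 CPM in the Pou5f2-led SPC-like cluster 6. It had 260 CPM in the Cdk1-led cluster 9, 193 CPM in cluster 0 and 161 CPM in cluster 10, and 12.5 to 15.7 CPM in clusters 3, 8, 13 and 17, where spermatid markers such as protamines and transition proteins took 110686 to 208171 CPM. Psma7 over the same A0 clusters ran from 16.6 CPM in cluster 13 to 85.8 CPM in cluster 15 and 42.9 CPM in cluster 6, and 100.5 CPM in the small Prm1-led cluster 30. The unnamed cluster 24, led by Prss50, Stra8 and Dazl, held the highest Psma7 of A0, 108 CPM, with 48.2 CPM of Psma8, and also 64694 CPM of spermatid markers. Both genes were higher in cluster 15 than in the 4 SPC-like clusters of A0.

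The share of cells with a Psma8 UMI followed the level. After each cell was thinned to 2500 UMIs, 42.0% of SPC-like cells of A0 (40.1 to 43.8) and 8.55% of ST-like cells (7.78 to 9.38) held one, and 89.3% and 35.7% did before thinning, at a median of 12271 and 13037 UMIs. In B0, 61.5% of SPC-like, 3.78% of SPG-like (1.74 to 7.06) and 1.20% of Leydig-like cells (0.835 to 1.66) held one after thinning, and 77.4%, 8.82% and 2.02% before it, at medians of 5118, 4052 and 4050 UMIs. Macrophage-like cells of B0 held one in 2.02% (0.929 to 3.80) and endothelial-like cells in 8.70% (3.26 to 18.0) after thinning, at medians of 3987 and 3742 UMIs. Somatic cells should lack the gene, and the SPG-like share lay above that of Leydig-like cells but not above all somatic classes. The 69 endothelial-like cells held 931 CPM of spermatocyte markers. Psma7 showed the reverse, with 83.2% of SPG-like, 87.0% of Leydig-like and 42.8% of SPC-like cells of B0 after thinning, and 5.77% of SPC-like cells of A0.

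The genes most like Psma8 over 34 clusters of at least 50 cells, by Pearson's r of log2(CPM + 1) among 13337 genes, were Zbtb32 (0.986), Spo11 (0.985), Hsf5 (0.981), Mtl5 (0.980) and Prok2 (0.979). Spo11, which makes the meiotic double-strand breaks, was among the markers used to name spermatocytes. The clusters share libraries and were built from other genes that vary with the same stages, so these values are a description. For Psme4, the other spermatoproteasome gene, r was 0.48, and for Psma7 -0.08.

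Most proteasome genes were lower in ST-like than in SPC-like cells, and a group of 4 was higher. In A0, 23 of 41 members were at least 2-fold lower and 4 at least 2-fold higher in ST-like cells, where 43.3% and 25.3% of 7439 genes were; the members' median was -1.15, against -0.75 over all genes. In A10 the counts were 22 and 4 of 41, against 43.8% and 25.0%. The lower genes came from every ring and the cap: 5 of 8 alpha, 4 of 7 beta, 3 of 6 ATPase and 10 of 14 Psmd genes in A0. Psmd14, the deubiquitinase of the cap, had 55.6 CPM in SPC-like and 5.9 CPM in ST-like cells of A0 (-3.04), and Psma8 (-2.69), Psmb1 (-2.63) and the scaffold subunit Psmd1 (-2.55) followed. Of the 14 Psmd genes, 12 reached 10 CPM in ST-like cells of A0 or A10. The rest, Psmd14 among them, were compared only through SPC-like cells, and the filter favoured their call as lower. Spermatid markers took 76784 CPM of the ST-like and 8099 CPM of the SPC-like UMIs in A0. This lowers the share of every other gene by the same factor, and its part in the ratios was not tested.

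The 4 members that were higher in ST-like cells were the same in both libraries. Psma6 had 347 CPM in SPC-like and 1601 CPM in ST-like cells of A0, and 348 and 1610 CPM in A10 (log2 ratio 2.2 in both). Psmf1, the PI31 inhibitor (chr2:151715812-151744186), had 149 and 700 CPM in A0 and 154 and 651 CPM in A10 (2.22 and 2.07). Psme3 had 40.2 and 155 CPM in A0 and 39.4 and 152 CPM in A10 (1.92 and 1.92). Psmd10, gankyrin, had 24.5 and 58.7 CPM in A0 and 23.3 and 60.6 CPM in A10 (1.23 and 1.34). They did not share 1 course over the ST-like clusters. In A0, Psmd10 was highest in clusters 2 and 5 (117 and 94.0 CPM), where spermatid markers were low. It had 8.76, 16.5 and 22.4 CPM in ST-like clusters 13, 3 and 17, under the 24.5 CPM of the SPC-like class. SPC-like clusters 0 and 10 already held 44.7 and 46.2 CPM of it. Psme3 was highest in clusters 8 and 17 (392 and 364 CPM). In clusters 2 and 5 it had 34.9 and 34.2 CPM, under the 40.2 CPM of the SPC-like class. Psmf1 and Psma6 were highest where protamine and transition protein genes were, with 1472 CPM of Psmf1 in cluster 3 and 2667 CPM of Psma6 in cluster 13. Psmb5, the chymotrypsin-like catalytic subunit, ran the other way, from 262 CPM in cluster 2 to 24.3 CPM in cluster 13.

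**Figure D3:**
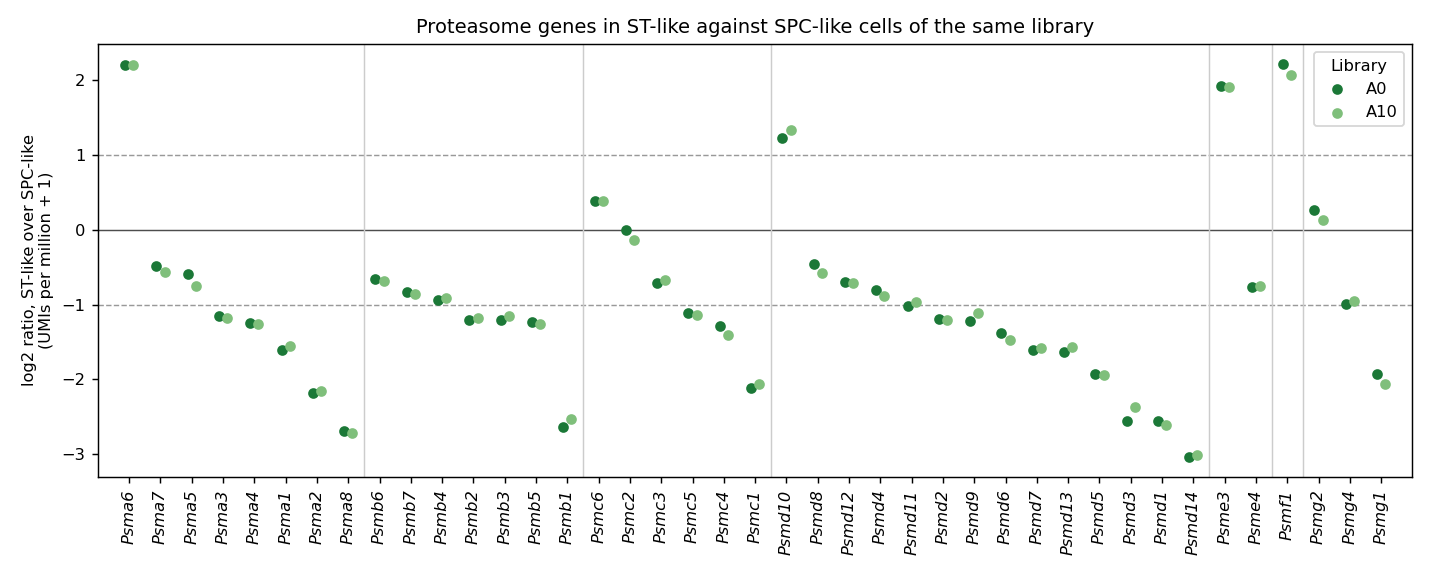
Log2 ratio of ST-like over SPC-like cells (CPM + 1) for the 41 members at 10 CPM or more in either class of A0, in A0 and A10, ordered by role. Dashed lines mark 2-fold, and Psma6, Psmd10, Psme3 and Psmf1 lie above the upper one in both libraries.

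The sequences before the RefSeq start (GRCm38.p6) are shown for the 3 of these genes with the highest ratios. Each was higher in the ST-like class taken as a whole, although their courses over its clusters differed. CCAAT was searched on both strands in the 250 bases upstream, and its copies (CCAAT or ATTGG) are in capitals. Psma6 has a second RefSeq start, which is not shown.
Psma6, chr12:55383972-55384221, plus strand: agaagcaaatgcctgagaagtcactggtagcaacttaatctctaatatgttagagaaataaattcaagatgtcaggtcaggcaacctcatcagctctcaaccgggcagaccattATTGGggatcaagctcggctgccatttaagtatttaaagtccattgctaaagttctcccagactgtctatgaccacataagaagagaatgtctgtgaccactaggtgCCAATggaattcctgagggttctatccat
Psme3, chr11:101315963-101316212, plus strand: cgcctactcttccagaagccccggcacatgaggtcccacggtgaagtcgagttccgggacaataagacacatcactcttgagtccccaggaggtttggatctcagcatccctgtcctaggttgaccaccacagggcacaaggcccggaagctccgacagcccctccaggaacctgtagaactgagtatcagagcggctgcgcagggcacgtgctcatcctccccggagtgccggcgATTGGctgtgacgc
Psmf1, chr2:151741311-151741560, minus strand: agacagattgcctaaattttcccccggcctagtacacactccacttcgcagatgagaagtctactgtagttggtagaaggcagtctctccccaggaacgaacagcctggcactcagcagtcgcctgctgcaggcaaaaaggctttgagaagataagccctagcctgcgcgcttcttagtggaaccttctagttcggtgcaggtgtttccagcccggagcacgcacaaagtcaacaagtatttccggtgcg

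Psma6 held 2 copies, at -136 and -29 from the start, Psme3 held 1 at -14 and Psmf1 held 0. Of 32851 mouse promoters of this length 33.8% held CCAAT, as did 14 of 40 member genes with a RefSeq promoter. The interferon-stimulated response element, searched as GAAA and GAAA spaced by 2 bases, was in 2.98% of all promoters and in 3 member genes, Psmb3, Psmd4 and Psmd9. The cyclic AMP response element TGACGTCA was in 1.55% of all promoters and 0 member genes, and the antioxidant response element core TGANNNNGC in 35.2% and 16 member genes.

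Immunoproteasome genes were low in SPC-like and ST-like cells of the libraries without busulfan, and were found in somatic and SPG-like cells of B0. Psmb8, which replaces Psmb5, had 2 UMIs in 2841 SPC-like cells of A0 and 5 in 4841 ST-like cells (0.037 and 0.065 CPM). In B0 it had 215 CPM in endothelial-like, 127 in macrophage-like, 49.7 in Leydig-like and 35.1 in Sertoli-like cells, and 15.9 CPM (9.07 to 25.8) in SPG-like cells. Psmb9, its neighbour on chromosome 17, had 96.9, 68.2, 41.6, 38.6 and 20.8 CPM in the same classes, and Psmb10 had 126.5, 82.3, 73.2, 57.3 and 82.3 CPM. Psmb10 was thus as high in SPG-like as in macrophage-like cells, whereas Psmb8 was not. Macrophage-like cells of B0 also held 17353 CPM of Leydig markers, more than the 5151 CPM of their own and less than the 27364 CPM in Leydig-like cells, and the part of this RNA in their values was not tested.

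As a share of the UMIs of the 6 catalytic subunits, the immune forms made up 0.301% (0.260 to 0.346) in SPC-like and 0.349% in ST-like cells of A0, and 31.9% (27.9 to 36.1) in endothelial-like and 23.2% (21.5 to 25.0) in macrophage-like cells of B0. Leydig-like, Sertoli-like and SPG-like cells of B0 lay between, at 12.5%, 14.3% and 8.97%. The SPG-like cells also held 786 CPM of Leydig and 2518 CPM of Sertoli markers (8 of 8 with UMIs in both lists), and the part of this RNA in their share was not tested. SPC-like cells had 3.26% (2.53 to 4.12) in B0 and 0.990% (0.922 to 1.06) in BA10, both above A0, and the Leydig markers given above moved with them. Standard forms differed less between germ cell classes and libraries: Psmb5, Psmb6 and Psmb7 together had 1187 CPM in SPC-like cells of A0, 1098 in B0, 1199 in BA10 and 1208 in SPG-like cells of B0, and 671 CPM in ST-like cells of A0.

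**Figure D4:**
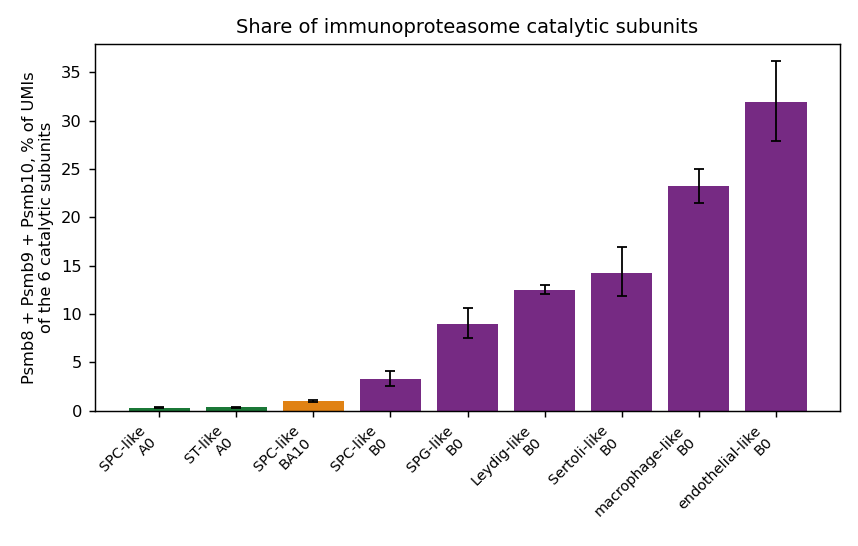
Share of Psmb8, Psmb9 and Psmb10 in the UMIs of the 6 catalytic subunits by cell class and library, in percent, with 95% exact binomial intervals. The bars rise from 0.301% in SPC-like cells of A0 to 31.9% in endothelial-like cells of B0.

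Among the activator genes, Psme1 and Psme2 were low in SPC-like cells and Psme3 and Psme4 were not. Psme1 and Psme2, which lie side by side on chromosome 14, had 0.62 and 1.11 CPM in SPC-like cells of A0 and 400.4 and 362 CPM in Leydig-like cells of B0. In SPG-like cells of B0 they had 149.8 CPM (127 to 176) and 272 CPM (241 to 306), which was within the range of the somatic classes: Sertoli-like cells had 99.4 and 325 CPM, endothelial-like cells 191 and 256 CPM and macrophage-like cells 316 and 316 CPM. In SPC-like cells of BA10 they had 4.09 and 7.39 CPM, and 19.6 and 42.5 CPM in those of B0. Psme2b, the copy of Psme2, had 0.046 to 12.9 CPM over the 4 libraries, and reads of the pair may be split between them. Psme3 was present in all germ cell classes, with 154 CPM in SPG-like cells of B0, 40.2 CPM in SPC-like and 155 CPM in ST-like cells of A0. Psme4 was highest in SPC-like cells of A0 and A10, with 118 and 112 CPM, against 69.6 and 66.3 CPM in their ST-like cells and 44.6 CPM in SPG-like cells of B0.

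Psme4, the PA200 gene (chr11:30771726-30880361, plus strand), was lower in BA10 than in the other libraries in SPC-like cells and in the 10 cluster comparisons given here, but not in Leydig-like cells. In SPC-like cells it had 118, 112, 86.2 and 43.3 CPM in A0, A10, B0 and BA10, and it was the 1 member at least 2-fold lower in BA10 than in A0 (-1.43), where 12.2% of 6971 genes were; Psma7 was the 1 member at least 2-fold higher (1.04), against 3.60%. SPC-like cells of A0 and BA10 fell into different clusters, so each BA10 cluster was set beside the A0 cluster that shared most of its 10 leading genes, and 2 unnamed clusters were matched in the same way. Psme4 had 110 CPM in A0 cluster 0 and 44.3 CPM in BA10 cluster 11, which shared 6 leading genes. It had 131 and 45.3 CPM in clusters 9 and 18, 103 and 40.4 CPM in clusters 15 and 19, 120 and 42.2 CPM in clusters 6 and 21, and 101 and 48.8 CPM in clusters 2 and 22. These 4 pairs shared 5, 6, 5 and 2 leading genes. Clusters 15 and 22 were unnamed and cluster 2 was ST-like, so the last pair does not concern SPC-like cells. All 5 A0 values lay above all 5 BA10 values, with log2 ratios of -1.29, -1.51, -1.33, -1.48 and -1.03. Of all genes, 6.36%, 9.34%, 17.8%, 8.54% and 3.66% were at least 2-fold lower in these 5 pairs. Psma8 differed by less, with ratios between -0.22 and 0.03. Psma7 was higher in BA10 in every pair, with ratios of 0.82, 0.64, 0.47, 0.40 and 1.02. In clusters 15 and 19, Psma6 and Psmf1 were at least 2-fold lower beside Psme4 (3 of 43 members). In clusters 2 and 22, Psma7 and Psmd14 were at least 2-fold higher (2 of 40 members, against 4.47% of all genes). In the other pairs Psme4 was the only member past 2-fold.

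Clusters that held at least 50 cells of BA10 and of another library gave the same order. Between BA10 and B0, Psme4 had 54.7 and 122 CPM in cluster 14 (log2 ratio -1.14, interval of the ratio without the added 1 -1.34 to -0.97), 40.4 and 96.9 CPM in cluster 19 (-1.24), 58.2 and 113 CPM in cluster 27 (-0.94) and 56.7 and 121 CPM in cluster 29 (-1.08). Of all genes, 5.64%, 9.45%, 29.1% and 42.0% were at least 2-fold lower there. Cluster 14 was unnamed and led by haemoglobin genes, cluster 27 was unnamed and led by Dcn, and cluster 29 was macrophage-like. The cells of cluster 29 differed between B0 and BA10, with medians of 3780 and 16338 UMIs and Psma8 shares of 8.54% and 77.1%. In cluster 24, A0, A10 and BA10 had 139, 146 and 68.7 CPM, but its cells differed between the libraries, with 64694, 53233 and 2105 CPM of spermatid markers. In cluster 25, which held B0, A0 and A10 but too few cells of BA10, they had 97.0, 99.0 and 101 CPM. In cluster 19, Psme4 was the 1 of 43 members past 2-fold in either direction, and in cluster 14 it was 1 of 2, with Psme1. In cluster 27, where Psme4 did not reach 2-fold, 5 of 46 members were lower, and in cluster 29 it was 1 of 12 of 47 lower members, while 4 were higher. Of all genes, 0.433%, 1.59%, 4.62% and 15.8% were at least 2-fold higher in BA10 in clusters 14, 19, 27 and 29. The matching by leading genes and by cluster was chosen after the values were seen, and with 1 library per group the treatment and the preparation of a library cannot be told apart. Over whole classes, Psme4 had 47.3 CPM (43.6 to 51.3) in Leydig-like cells of B0 and 87.9 CPM (76.3 to 101) in those of BA10, a log2 ratio of 0.88. Other markers moved with it in these cells: all 13 spermatocyte markers summed to 113 CPM in B0 and 1065 CPM in BA10, spermatid markers (15 and 17 of 17 with UMIs) to 60.3 and 1280 CPM, and the 8 Leydig markers to 27364 and 10710 CPM, and their part in the Psme4 values was not tested. After thinning, 10.5% and 18.3% of these cells held a UMI. Most of these cells lay in cluster 1 in B0 and in cluster 32 in BA10. In macrophage-like cells it had 69.3 CPM (58.2 to 81.8) in B0 and 55.3 CPM (43.3 to 69.7) in BA10, and the intervals overlap. Those of B0 lay mostly in cluster 23 (349 of 445) and those of BA10 in cluster 29 (56 of 63). Spermatocyte markers summed to 323 and 1799 CPM in them, and their part in these values was not tested.

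**Figure D5:**
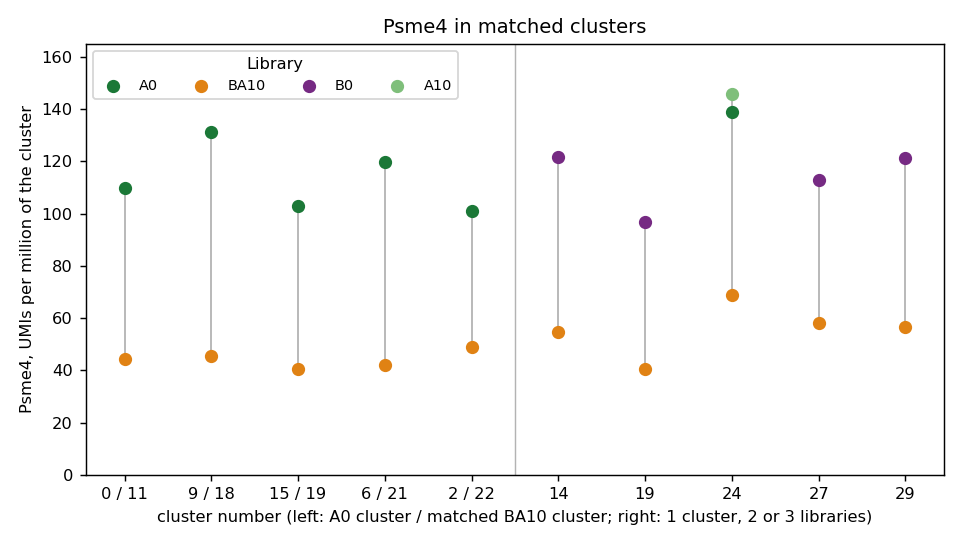
Psme4 in CPM of each cluster, on a linear axis from 0. The left part pairs A0 clusters with the BA10 clusters that share their leading genes, and the right part shows clusters with at least 50 cells of BA10 and of another library; BA10 lies lowest in all 10.

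Psma8 was lower in A10 than in A0 in most clusters, and spermatid markers moved with the libraries. Of 19 clusters with at least 50 cells of each in which it reached 10 CPM, it was lower in 17 and higher in 2, with a median log2 ratio of -0.33. The counting interval lay below 0 in 9 and above 0 in 1, cluster 24 (0.49). In cluster 6 it had 366 CPM in the control and 292 CPM with AOS, 260 and 196 CPM in cluster 9 and 193 and 150 CPM in cluster 0, but 511 and 502 CPM in cluster 15, where it was highest. The 19 ratios lay between -0.88 and 0.49. The summed spermatid markers were higher in A10 in 17 of the 19 clusters, with 7272 and 9269 CPM in A0 and A10 in cluster 0, and lower in clusters 15 and 24, and their part in the Psma8 values was not tested. Without a second library per group the spread between preparations is unknown. Psmc2 was lower in 17 of 19 clusters too (median -0.14), Psmc3 was higher in 17 (0.08) and Psmb1 in 18 (0.20), so small differences of 1 sign over many clusters were not particular to Psma8.

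Other genes of the ubiquitin and proteasome pathway were read from a list of 33, of which 29 were in the table. In ST-like against SPC-like cells of A0, 11 of 23 were at least 2-fold lower and 4 higher, against 43.3% and 25.3% of all genes. Pomp, the chaperone that matures the 20S core, had 144 CPM in SPC-like and 17.4 CPM in ST-like cells (-2.98), and Vcp, the segregase that feeds the proteasome, had 75.5 and 21.4 CPM (-1.77). Uba1, the E1 enzyme that activates ubiquitin, was among those that were higher (2.94). It had 13.6 CPM over all cells of A0 and reached 10 CPM only through the ST-like cells, so the filter favoured this call. Compared to A0, 12 of 27 were at least 2-fold higher and 3 lower in B0, against 42.8% and 22.7% of all genes. Of the higher genes, Nfe2l1, Nfe2l2, Ubqln2 and Uchl1 had 6.25, 6.15, 0.31 and 7.09 CPM in A0. They reached 10 CPM only through B0, so the filter favoured their call as higher. Nfe2l1, the transcription factor that drives proteasome genes when the particle is inhibited, had 6.25 CPM in A0 and 120 CPM in B0 (4.06), and Pomp had 72.4 and 324 CPM (2.15), while Akirin2, which brings proteasomes into the nucleus, had 555 and 256 CPM (-1.12). Above 9013 UMIs per cell these ratios were 1.38 for Nfe2l1 and 1.02 for Pomp, and that of Akirin2 turned to 0.10.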

How the data were processed

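Single cells of mouse testis were measured in 4 libraries, 1 per group, named from the submitters' treatment labels. The authors aligned reads to mm10 with Cell Ranger 2.2.0, removed sparse cells and genes, and deposited 1 table of natural log values, ln(1 + UMIs of the gene per 10000 UMIs of the cell), made with Seurat. Whole UMI counts were recovered from these deposited values (100% whole within 0.001) in Python 3.11.15 (numpy 2.4.6, scipy 1.17.1), so depth per cell is known. No doublets were removed. Columns of the authors' own comparisons were not used.

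Cells were clustered on 2000 variable genes without the members (30 principal components, 15 neighbours, Leiden resolution 1, leidenalg 0.10.2). Clusters took the class with the highest mean marker score, each marker's level being divided by its highest level in any cluster. The rules for leaving a cluster unnamed were set after the clusters were seen. UMIs were summed per library, class or cluster, scaled to 1000000, and compared as log2 ratios with a pseudocount of 1 CPM among genes at 10 CPM or more. At least 2-fold stands in for a call, since 1 library per group allows no test. Ratios were tested on simulated counts. Single genes are named by a fixed rule: the alternative subunits and activators, and the 3 highest and 3 lowest ratios of each library comparison; Psmc3, Psmd1, Psmd10 and Psmd14 outside it, and the clusters and pathway genes with values, were chosen after their values were seen. The members and all lists were chosen with earlier results of these data known. Promoters are from RefSeq (GRCm38.p6), and 40 of 48 members matched. Of the pathway list, most genes are given by counts only, and a few are not reported here. Alternatives changed the pseudocount, weighting of cells, depth limit, scaling, filter, clustering and high-UMI cells.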

Additional observations from a re-analysis of the deposited data

Results flagged for a closer look

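For 19 of the 48 members the log2 ratio of BA10 over B0 had the opposite sign to that of A10 over A0, and the counting intervals of both ratios lay clear of 0. The same held for 18.8% of 16953 genes with a UMI in both pairs of libraries. Among genes at 10 CPM or more in both pairs it held for 37.2% of 6172 genes and 16 of 40 members, so the members were near the background. Each contrast is 1 library against 1 library, and the difference was not tested. The ratio of BA10 over B0 minus that of A10 over A0 was 2.04 for Psma8, 1.60 for Psmf1, 1.50 for Psmc2, 1.27 for Psmd8, 0.66 for Psmd6, 0.64 for Psmd13, 0.36 for Psmb6 and 0.25 for Psma6. It was -3.56 for Psmb9, -3.18 for Psma7, -1.70 for Psmb3, -1.44 for Psma2, -1.39 for Psmg3, -1.07 for Psmb1, -1.03 for Psmb2, -0.87 for Psmd5, -0.67 for Psma1, -0.40 for Psmd1 and -0.21 for Psmd14. Psmb9, Psmg3 and Psmd5 lay under 10 CPM in both A0 and A10. The signs were opposite for 15 of the 19 within SPC-like cells and for 9 of the 19 above 9013 UMIs per cell. No share of all genes was taken for these counts, so they cannot be set against a background. Opposite signs there need not be the same signs: both ratios of Psma6 turned within SPC-like cells. Within SPC-like cells Psma8 was -0.31 for A10 over A0 and -0.59 for BA10 over B0, of the same sign. The kinds of cells differed between B0 and BA10 far more than between A0 and A10.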

How the results depend on the processing

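Each group is 1 library, 374 barcodes are shared, and B0, with a median of 4214 UMIs per cell, is the shallowest. No paired analysis was possible because each group is 1 library. Of 144 repeats of summary values, 108 kept their value within 1.5-fold for counts or within the counting interval for ratios and shares, and 36 moved. Of 603 repeats of single genes' ratios, 276 kept their value in the same sense, 295 moved and 32 changed sign; causes of moves were not tested beyond what each change does by construction.

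Above 9013 UMIs per cell, members at least 2-fold higher in B0 than A0 numbered 5, and between BA10 and B0 0 were higher and 3 lower. Within SPC-like cells, 12 were higher and 2 lower of 45 in B0 than A0 (34.6% and 22.3% of all genes), 1 was higher and 8 lower of 45 in BA10 than B0 (15.4% and 34.4%), and 1 was higher and 1 lower of 41 in BA10 than A0 (3.60% and 12.2%). Between BA10 and A0, 4 were higher with a pseudocount of 10 CPM, and with ratios centred on the median of all genes (0.34) 4 were higher and 5 lower. The log2 ratio of the sum of Psmb8, Psmb9, Psmb10, Psme1 and Psme2 was 5.21 with a pseudocount of 10 CPM, 6.45 with each cell counted alike, 3.47 above 9013 UMIs and 6.46 without the 5% of cells with most UMIs when B0 was compared with A0. Between BA10 and B0 it was -3.59, -3.62, -1.03 and -3.98, and between BA10 and A0 1.62 and 2.83 under the first 2.

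The Psma8 share stayed higher in SPC-like than in ST-like cells of A0 and A10 and than in SPG-like cells of B0. It was 89.0% at resolution 0.5, 89.4% at resolution 2 and 89.4% with cells named from their own markers for SPC-like cells of A0. For ST-like cells of A0 it was 60.3% with 1000 variable genes, 63.7% at resolution 2 and 72.3% with cells named from their own markers. In A10 it was 85.6% for SPC-like cells at resolution 0.5, and 54.1% and 67.6% for ST-like cells with 1000 variable genes and with cells' own markers. In B0 it was 7.19% for SPG-like cells and 64.7% for SPC-like cells with cells' own markers, 76.3% and 62.6% for SPC-like cells above 9013 UMIs and without the cells of most UMIs, and 0.448% for Leydig-like cells with 1000 variable genes. It was 81.7% for SPC-like cells of BA10 with cells' own markers.

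These single ratios changed sign. For A10 over A0, Psma6 was 0.0023 with each cell counted alike, 0.0062 in SPC-like cells alone and 0.0082 in ST-like cells alone, Psmb6 was 0.012 after centring, Psmf1 was 0.045 within SPC-like cells, and Psma8 was 0.054 and 0.49 within clusters 16 and 24, comparisons added after seeing the data. For B0 over A0, above 9013 UMIs Psma8 was 0.28, Psmc6 -0.13 and Psme4 0.36; within SPC-like cells Psma8 was 0.81, Psmb5 -0.35, Psmb6 -0.10 and Psme3 0.30; Psmb6 was -0.038 with each cell counted alike, and Psmb6 was -0.46 and Psmb7 -0.27 after centring. For BA10 over B0, above 9013 UMIs Psma6 was -0.46, Psmb1 0.23, Psmb5 0.065, Psmb7 0.13 and Psme3 0.31; within SPC-like cells Psma6 was -0.059, Psma8 -0.59, Psmb5 0.29 and Psmg1 -0.61; Psmb7 was 0.018 with each cell counted alike, and Psmb5 was 0.15 and Psmb7 0.31 after centring. For BA10 over A0, Psmb7 was -0.17 after centring and -0.17 within SPC-like cells, where Psmb5 was -0.057. Psme4 in BA10 over B0 was -0.94 to -1.24 within 4 shared clusters, also added after seeing the data.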
